A study of Homo sapiens with 4 samples.

Results

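Nuclear receptors are transcription factors whose activity is set by small lipid-soluble ligands or, for the orphan receptors, by their own abundance and partners. The 45 human nuclear receptor genes described here were taken by symbol from the 58302 gene rows of the deposited table, and all 45 were found. ESR1 is not among them: part of the oestrogen receptor, its hormone-binding domain, also belongs to the fusion protein that drives this cell model. BLaER1 is a human B cell leukaemia line that carries C/EBPα joined to that domain and can be converted into macrophage-like cells. Total RNA was sequenced from 2 libraries of undifferentiated cells and 2 libraries of differentiated cells. Differentiated cells had been kept for 5 to 6 days with IL-3 (10 ng/ml), M-CSF and 100 nM oestradiol, while nothing in the labels gives these additions for undifferentiated cells. A single line was used, and the labels do not state separate cultures, so the p-values measure the spread between these libraries alone.

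Most receptors of the family bind DNA at copies of the hexamer AGGTCA or a close relative, as monomers, homodimers or heterodimers with a retinoid X receptor (RXR). Liver X receptors (LXR), peroxisome proliferator-activated receptors (PPAR), retinoic acid receptors, the vitamin D receptor and thyroid hormone receptors all pair with RXR. In macrophages LXR and PPAR are known for the control of cholesterol efflux and fatty acid use, and NR4A receptors are induced early after stimulation. The glucocorticoid receptor is held by HSP90 chaperones in the cytosol until its ligand binds.

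In differentiated cells RORB mRNA was lower, while RXRA, RXRB and most tested receptors of the classes named above as pairing with RXR were higher. Of the 45 genes, 9 were called higher and 1 lower in differentiated cells, 8 were tested and not called, and 27 were too low to test. Called means a Benjamini-Hochberg adjusted p below 0.05 in limma over all 10180 genes tested, where 41.4% of genes were called, 18.6% higher and 22.8% lower. Among the 9295 tested genes of protein-coding type those shares were 40.4%, 17.4% and 23.0%. The values are TPM, an abundance per gene length scaled to the same sum in every library, and differences refer to log2(TPM + 1), so that changes of low genes come out too small. A gene was tested with at least 1 TPM in at least 2 libraries. Of the 9 receptors called higher, 5 (PPARD, RARA, RARG, NR1H3 and NR4A2) passed this filter through the differentiated libraries alone. RORB passed through the undifferentiated libraries alone. The count is therefore a description and not evidence about the family. In such bulk RNA, fewer cells with a transcript and less transcript per cell cannot be told apart.

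The stretches of 250 bases before the annotated gene starts of 6 called receptors are printed here. They come from RefSeq (GRCh38.p14), on the plus strand and 5′ to 3′. Capitals mark AGGTCA, the core site of the family, or TTNNGCAA, a C/EBP-type motif, on either strand. The motifs share no letters here, and a match is a description of the sequence.
PPARD, chr6:35342308-35342557: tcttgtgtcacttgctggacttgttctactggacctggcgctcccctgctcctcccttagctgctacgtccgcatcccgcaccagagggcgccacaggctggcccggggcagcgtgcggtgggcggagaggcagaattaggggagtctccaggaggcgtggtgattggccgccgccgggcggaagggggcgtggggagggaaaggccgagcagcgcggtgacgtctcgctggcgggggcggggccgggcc
RXRA, chr9:134326205-134326454: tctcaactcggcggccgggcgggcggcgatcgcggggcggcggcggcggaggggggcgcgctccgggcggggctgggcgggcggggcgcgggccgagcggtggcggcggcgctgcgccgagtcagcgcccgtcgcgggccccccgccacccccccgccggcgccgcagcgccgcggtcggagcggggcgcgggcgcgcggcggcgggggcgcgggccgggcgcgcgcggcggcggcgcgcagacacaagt
NR1H2, chr19:50376207-50376456: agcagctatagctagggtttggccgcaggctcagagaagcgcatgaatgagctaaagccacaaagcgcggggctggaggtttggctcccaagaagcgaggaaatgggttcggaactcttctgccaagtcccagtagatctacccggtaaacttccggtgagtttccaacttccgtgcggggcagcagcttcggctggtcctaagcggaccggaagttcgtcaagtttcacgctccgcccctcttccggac
RARA, chr17:40308930-40309179: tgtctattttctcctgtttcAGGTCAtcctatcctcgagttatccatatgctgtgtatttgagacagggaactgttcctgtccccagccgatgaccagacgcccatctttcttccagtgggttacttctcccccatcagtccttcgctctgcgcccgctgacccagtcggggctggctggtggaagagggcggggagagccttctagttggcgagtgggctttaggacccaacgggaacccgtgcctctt
NR1H3, chr11:47248050-47248299: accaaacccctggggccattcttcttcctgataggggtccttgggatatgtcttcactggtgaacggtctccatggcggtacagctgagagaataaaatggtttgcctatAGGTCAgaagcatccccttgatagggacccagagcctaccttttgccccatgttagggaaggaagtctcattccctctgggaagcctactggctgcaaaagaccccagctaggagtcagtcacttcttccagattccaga
RORB, chr9:74497085-74497334: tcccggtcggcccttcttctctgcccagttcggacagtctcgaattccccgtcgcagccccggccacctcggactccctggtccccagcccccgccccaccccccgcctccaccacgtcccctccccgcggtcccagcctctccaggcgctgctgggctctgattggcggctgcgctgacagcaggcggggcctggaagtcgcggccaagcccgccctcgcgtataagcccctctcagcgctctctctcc
RORB, chr9:74615284-74615533: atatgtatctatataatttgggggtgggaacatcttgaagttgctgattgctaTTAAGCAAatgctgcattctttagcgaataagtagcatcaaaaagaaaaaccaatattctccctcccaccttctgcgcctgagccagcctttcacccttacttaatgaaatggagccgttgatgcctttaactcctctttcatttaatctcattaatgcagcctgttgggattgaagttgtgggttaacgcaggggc
The printed windows of RARA and NR1H3, the most upstream of 3 and 4 annotated starts, each held a single AGGTCA, 230 and 140 bases before the start, and their other windows held neither motif. RORB has 2 annotated starts, and TTAAGCAA lay 197 bases before the downstream one. The windows of PPARD, RXRA and NR1H2 that are printed held neither motif. Promoter entries matched 40 of the 45 receptors (90 windows), while NR4A2, VDR, NR2F6, HNF4G and NR0B2 had none. AGGTCA occurred in 16.7% of the receptor windows and in 12.1% of all 35116 windows of this length, and TTNNGCAA in 7.8% and 9.1%.

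Markers followed the labels of the cells. All 10 B lineage markers fell (summed 488 and 283 TPM before, 17.45 and 15.98 TPM after differentiation) and all 10 macrophage markers rose (8.22 and 6.33 TPM before, 769 and 846 TPM after). The 8 neutrophil granule markers and 7 erythroid markers stayed below 1 TPM in all 4 libraries, with ELANE and KLF1 listed at 0 throughout. Of 8 T cell markers, 6 stayed below 1 TPM and CD3D and CD3E were listed at 0, whereas TRAC was at 110 and 51.5 TPM before and 3.82 and 6.61 TPM after differentiation. Of 8 fibroblast and epithelial markers only PDGFRB was tested (4.99 and 2.24 TPM before, 0.87 and 0.41 TPM after). The median-of-ratios factor was 1.38 for undifferentiated replicate 1 and between 0.812 and 0.976 for the other libraries, and protein-coding genes took 12.2% and 13.5% of all TPM after and 23.0% and 15.6% before differentiation. Each TPM was therefore also rescaled over protein-coding genes alone, which moved the median difference of all tested genes from -0.14 to 0.37. The 1 TPM filter and the 1 added before the log were applied after rescaling. Rescaling made values larger, for NR2C1 10.98 to 90.08 in differentiated and 14.15 to 61.5 in undifferentiated replicate 1. Lower genes therefore passed the filter, and differences of low genes shrank less. Values on that second scale are given where they change the call of a receptor or of another gene named here, and as counts for each list they alter.

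RXRA and RXRB, the shared partners, rose. RXRA had 6.86 and 7.43 TPM once cells were differentiated and 1.28 and 1.11 TPM beforehand, a log2 difference of 1.89 ± 0.37 (SE, limma adjusted p = 0.00124). RXRB was at 2.92 and 2.68 TPM after and 1.17 and 0.58 TPM before, a difference of 1.04 ± 0.32 (adjusted p = 0.0194). For both genes every differentiated library lay above every undifferentiated one. RXRG, which is mainly a receptor of muscle and brain, was listed at 0 in all 4 libraries. The summed RXR level was 9.78 and 10.11 TPM after and 2.45 and 1.69 TPM in undifferentiated cells.

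Among lipid sensors PPARD, the PPAR subtype found in most tissues, differed most. PPARD (ENSG00000112033) had 7.99 and 8.73 TPM once cells were differentiated and 0.59 and 0.56 TPM beforehand, a log2 difference of 2.57 ± 0.37 (adjusted p = 0.000112). PPARD passed the filter through the differentiated libraries alone, the stage where it is high. It went from less than 1 TPM to the second most abundant receptor of both differentiated libraries. Its call held in all 14 alternative analyses. PPARA, the subtype of fatty acid oxidation in liver, overlapped between stages at 0.66 and 1.15 TPM after and 1.12 and 0.60 TPM before (95% interval of the difference -0.49 to 0.57). PPARG, the adipocyte subtype that also acts in alveolar macrophages, was listed at 0.11 TPM in differentiated replicate 2 and at 0 elsewhere. Within a library, which removes any scaling, PPARD exceeded PPARA 12.1-fold and 7.59-fold after differentiation, whereas the ratio was 0.527 and 0.933 before it.

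The oxysterol receptors LXRβ and LXRα, encoded by NR1H2 and NR1H3, were both higher. NR1H2 was at 5.03 and 6.24 TPM after and 1.14 and 1.29 TPM in undifferentiated cells, a difference of 1.58 ± 0.37 (adjusted p = 0.004015). NR1H3 was at 1.49 and 1.89 TPM after and 0.63 and 0.69 TPM before, 0.69 ± 0.25 (adjusted p = 0.0428). In both cases the stages did not overlap. The NR1H2 to NR1H3 ratio was 3.38 and 3.30 after and 1.81 and 1.87 before differentiation, so the ubiquitous LXRβ gene was the more abundant of the pair in every library. The NR1H3 call was lost with a pseudocount of 0.1 (adjusted p = 0.0626), with the replicate number as a block (adjusted p = 0.0695), without a variance trend (adjusted p = 0.109) and without undifferentiated replicate 1 (adjusted p = 0.0576). ACP2 shares 4.2% of the exon bases of NR1H3 on the opposite strand and was itself higher (5.23 and 4.92 against 1.61 and 0.96 TPM). The libraries were stranded, but whether counting used the strand is not given in the sources used here, and the part of ACP2 reads in the NR1H3 value was not tested. The bile acid receptor gene NR1H4 was listed at 0 in all libraries, and the xenobiotic receptors NR1I2 and NR1I3 at 0.16 and 0.04 TPM in differentiated replicate 1 and at 0 elsewhere.

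**Figure D1:**
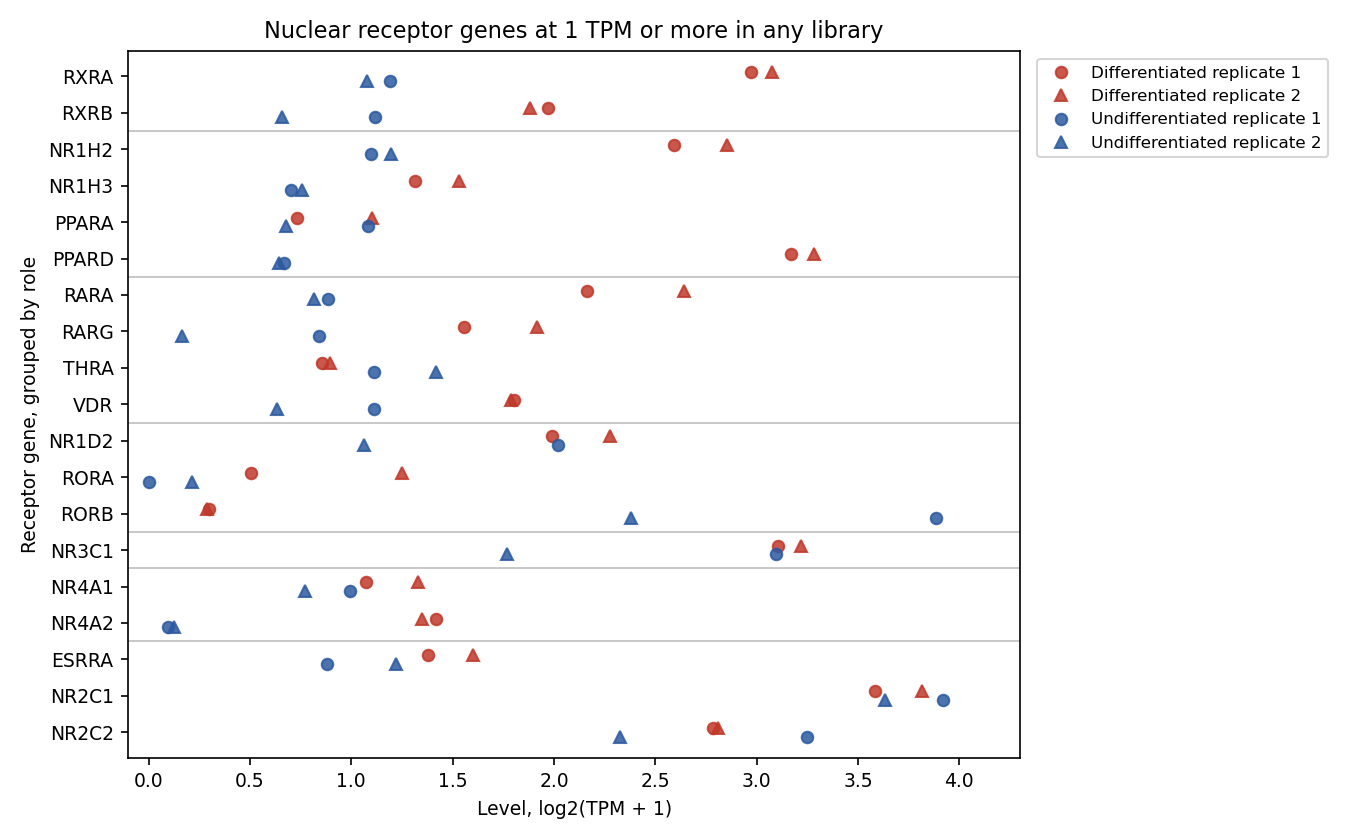
Level of each nuclear receptor gene that reached 1 TPM in any library, on a log2(TPM + 1) axis, with 1 point per library (red, differentiated; blue, undifferentiated; circle, replicate 1; triangle, replicate 2) and grey lines between roles. PPARD, RXRA, NR1H2 and RARA of differentiated cells stand apart to the right, RORB of undifferentiated cells does the same, and NR2C1 overlaps.

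Retinoic acid and vitamin D receptors rose as well. RARA, the main retinoic acid receptor of blood cells, was at 3.48 and 5.24 TPM after and 0.85 and 0.76 TPM in undifferentiated cells (1.55 ± 0.35, adjusted p = 0.00314). RARG was at 1.94 and 2.78 TPM after and 0.79 and 0.12 TPM before (1.24 ± 0.30, adjusted p = 0.00479), with a wide spread between the undifferentiated libraries. VDR, the calcitriol receptor, was at 2.49 and 2.45 TPM after and 1.16 and 0.55 TPM before (0.92 ± 0.31, adjusted p = 0.0288, and 0.05096 without a variance trend). None of these 3 genes overlapped between stages. RARB, which is itself a retinoic acid target in many cells, stayed at 0.32 TPM or less. The thyroid hormone receptor gene THRA lay lower at 0.81 and 0.86 TPM after against 1.16 and 1.67 TPM before, with no overlap between stages, a difference that was not called (95% interval -0.94 to 0.16), and THRB reached 0.04 TPM.

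RORB was the 1 receptor that fell. RORB, a retinoid-related orphan receptor best known from retina and cortex, was listed at 13.79 and 4.21 TPM before and at 0.23 and 0.22 TPM after differentiation, a log2 difference of -2.84 ± 0.46 (adjusted p = 0.000273). The undifferentiated libraries were far apart, and both lay above the differentiated ones. It took 22.7% and 12.2% of all nuclear receptor TPM before differentiation and 0.339% and 0.277% after it. RORA, the relative that is expressed in many tissues, went the other way at 0.42 and 1.38 TPM after and 0 and 0.16 TPM before. It was too low to test on the deposited scale and was called higher on the protein-coding scale (2.31, adjusted p = 0.00964), with the differentiated libraries far apart.

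Of the other clock receptors NR1D2 alone was tested as deposited, and it was not called. NR1D2, a haem-binding repressor of the clock, was at 2.97 and 3.85 TPM after and 3.05 and 1.09 TPM in undifferentiated cells (95% interval -0.29 to 1.48). It was called higher on the protein-coding scale (adjusted p = 0.0164), without undifferentiated replicate 1 (adjusted p = 0.0257) and under median-of-ratios scaling (adjusted p = 0.0388). NR1D1, too low to test as deposited, stayed between 0.34 and 0.61 TPM and was not called on the protein-coding scale (adjusted p = 0.288), and 9.5% of its exon bases are shared with THRA on the opposite strand.

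The glucocorticoid receptor gene NR3C1 was abundant at both stages and was not called. It was at 7.60 and 8.31 TPM after and 7.56 and 2.41 TPM in undifferentiated cells, a difference of 0.73 ± 0.46 (95% interval -0.26 to 1.72, adjusted p = 0.225). The stages did not overlap, but undifferentiated replicate 1 lay just below the lower differentiated library and replicate 2 far below it. NR3C1 was called higher without undifferentiated replicate 1 (1.39, adjusted p = 0.00933), on the protein-coding scale (1.42, adjusted p = 0.0149), with quantile normalization (adjusted p = 0.0367) and under median-of-ratios scaling (adjusted p = 0.03515). The mineralocorticoid receptor gene NR3C2 stayed at 0.16 TPM or less, the progesterone receptor gene PGR at 0.07 and the oestrogen receptor gene ESR2 at 0.04 TPM or less.

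**Figure D2:**
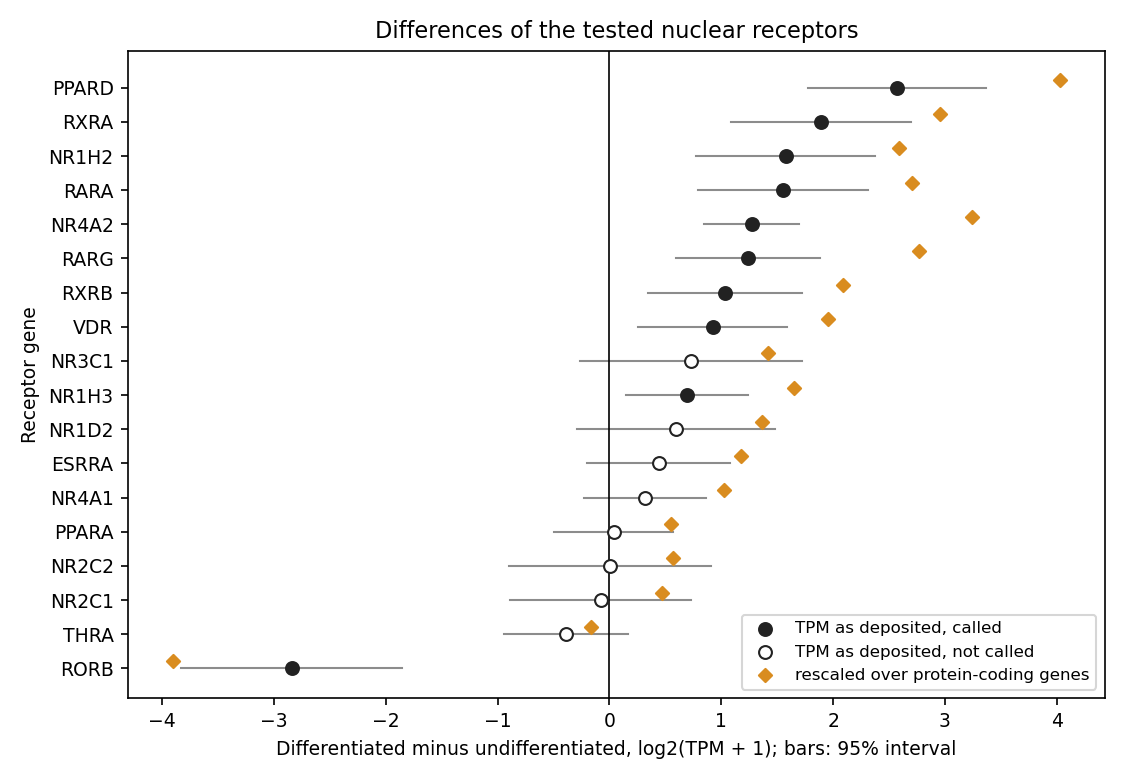
Log2(TPM + 1) difference, differentiated minus undifferentiated, of the 18 tested receptors with 95% intervals from limma (filled, called; open, not called) and the difference after rescaling over protein-coding genes (diamonds). Rescaling moves nearly all receptors to the right, PPARD from 2.57 to 4.03, while RORB goes from -2.84 to -3.91.

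Within the NR4A family, orphan receptors that act without a known ligand, NR4A2 alone was called. NR4A2 (NURR1) was at 1.67 and 1.55 TPM after and 0.07 and 0.09 TPM in undifferentiated cells, a difference of 1.27 ± 0.20 (adjusted p = 0.000195). NR4A1 was at 1.10 and 1.51 TPM after and 0.99 and 0.71 TPM before (95% interval -0.23 to 0.86). These differ in the NR4A2 to NR4A1 ratio, which was 1.52 and 1.03 after and 0.0707 and 0.127 before differentiation. NR4A3 was low at 0.14 and 0.15 TPM after and 0.01 and 0.02 TPM before. On the protein-coding scale NR4A1 (1.03, adjusted p = 0.0298) and NR4A3 (0.97, adjusted p = 0.0216) were also called higher. Rescaled NR4A3 was at 1.149 and 1.112 TPM after and 0.0435 and 0.128 TPM before, so it just passed the filter, through the differentiated libraries alone. NR4A2 passed through the differentiated libraries alone on both scales.

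The most abundant receptor at both stages was NR2C1, also called TR2, which binds repeats of the family's hexamer and is known as a repressor in red cell precursors. It was at 10.98 and 13.09 TPM after and 14.15 and 11.42 TPM in undifferentiated cells, with overlapping libraries (95% interval -0.89 to 0.73). Its partner NR2C2 (TR4) was at 5.88 and 6.00 TPM after and 8.50 and 4.02 TPM before (95% interval -0.89 to 0.91), also with overlap. On the deposited scale both intervals exclude a log2 change of 1, and NR2C1 lay at 0.47 and NR2C2 at 0.57 after rescaling over protein-coding genes, neither called. ESRRA, a regulator of mitochondrial genes, was at 1.60 and 2.03 TPM after and 0.84 and 1.33 TPM before and was called on the protein-coding scale alone (1.18, adjusted p = 0.0454). NR2F6 lay between 0.29 and 0.88 TPM. Exon bases are shared with a gene on the opposite strand for ESRRA (9.4%, TRMT112), NR2C2 (10.1%, MRPS25), RXRB (6.2%, SLC39A7), RARA (11.8%, RARA-AS1) and NR4A1 (10.3%, AC025259.3). As for NR1H3, the part of such reads in these values was not tested. RARA-AS1 was low at 0.34 and 0.38 TPM after and 0 and 0.03 TPM before, and AC025259.3 was at 0.24 TPM in differentiated replicate 2 and 0 elsewhere. MRPS25 was at 3.80 and 4.90 TPM after and 9.65 and 8.59 TPM before. TRMT112 was at 18.6 and 19.75 TPM after and 59.02 and 53.77 TPM before, and SLC39A7 at 3.88 and 3.60 against 1.68 and 2.25 TPM.

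The remaining receptors were at the lower end of the table. Of the 26 receptors below 1 TPM in all libraries, 6 were listed at 0 throughout (RXRG, NR1H4, NR2E3, NR5A1, HNF4G and NR0B2) and 17 reached at most 0.3 TPM. The liver receptor gene HNF4A reached 0.01 TPM, the steroidogenic NR5A2 0.05, NR2F1 0.27, NR2F2 0.04, NR2E1 0.05 and NR6A1 0.02 TPM. ESRRB and ESRRG each reached 0.02 and NR0B1, which lacks the usual DNA-binding domain, 0.03 TPM. The TPM carry no depth, so no detection limit can be given for them.

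Shares within the family do not depend on how a library was scaled. RXRs made up 14.4% and 12.7% of the summed receptor TPM after and 4.03% and 4.89% before differentiation. A set of 8 tested genes was taken from the classes named above as pairing with RXR (LXR, PPAR, retinoic acid, vitamin D and thyroid hormone receptors). These were NR1H2, NR1H3, PPARA, PPARD, RARA, RARG, VDR and THRA. Together the 8 made up 35.2% and 37.0% after and 12.2% and 18.1% before. PPARD alone took 11.8% and 11.0% after and 0.970% and 1.62% before, and NR2C1 16.2% and 16.5% after and 23.3% and 33.0% before. NR2C2 took 8.66% and 7.56% after and 14.0% and 11.6% before. Of the 8, PPARA (0.972% and 1.45% after, 1.84% and 1.74% before) and THRA (1.19% and 1.08% after, 1.91% and 4.83% before) took smaller shares after differentiation. The rest of the 8 took larger ones. The sum of these 8 genes exceeded summed RXRs 2.44-fold and 2.90-fold after and 3.04-fold and 3.69-fold before. The family as a whole took 0.0557% and 0.0589% of protein-coding TPM after and 0.0265% and 0.0222% before. Unlike the shares within the family, this one depends on the protein-coding total. That total was 12.2% and 13.5% of all TPM after and 23.0% and 15.6% before. As deposited, the 45 members summed to 67.91 and 79.36 TPM after and 60.85 and 34.58 TPM before. With 2 libraries a stage the smallest two-sided p of an exact permutation test is 0.333, so these shares are given without a test.

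**Figure D3:**
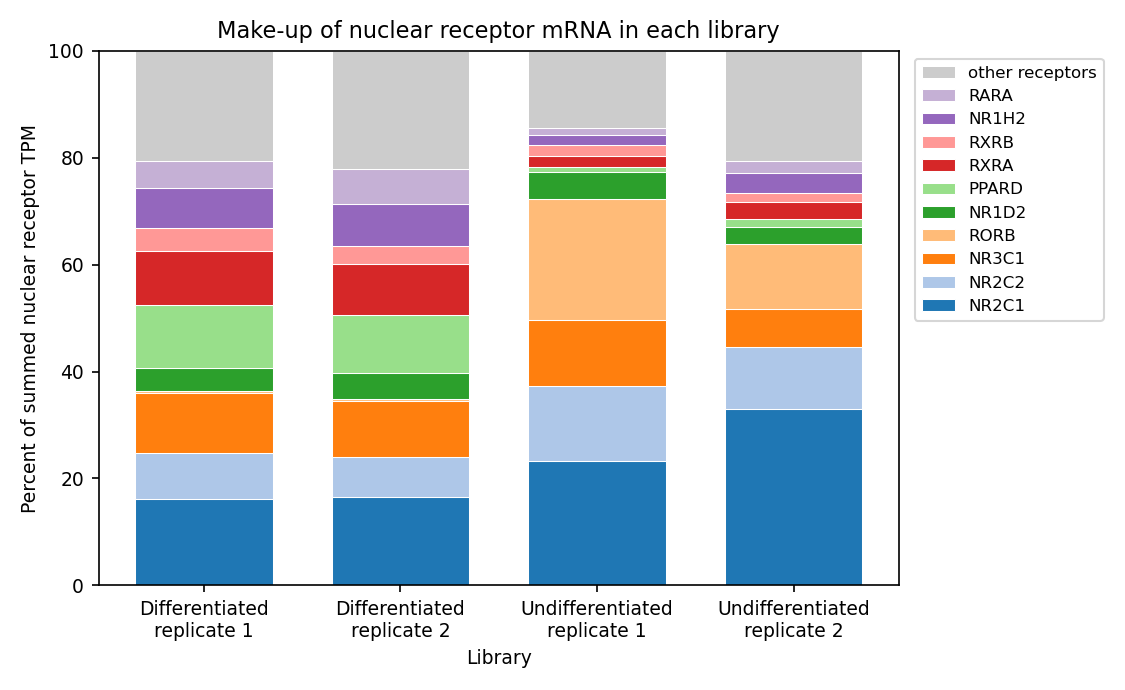
Percent of the summed TPM of all 45 nuclear receptor genes taken by 10 receptors and by the others (grey), 1 stacked bar per library. RORB takes 22.7% and 12.2% of the undifferentiated bars and is barely visible in the differentiated ones, where PPARD takes 11.8% and 11.0%.

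With TPM rescaled over protein-coding genes, 23 receptors could be tested, of which 15 were called higher and 1 lower. On that scale 52.4% of all 11945 tested genes were called, 34.3% higher and 18.0% lower. The 6 added to the higher group were NR3C1, NR1D2, NR4A1, NR4A3, ESRRA and RORA. Of these NR4A3 and RORA were too low to test as deposited and passed the filter on the rescaled values only. NR4A3, like NR4A2 among the receptors called on both scales, passed the rescaled filter through the differentiated libraries alone. The stages did not overlap for 14 of the 18 receptors tested as deposited, against 70.0% of all tested genes, and 8 of the 18 had passed the filter through 1 stage alone. Without either differentiated replicate 1 or replicate 2, only PPARD (adjusted p = 0.0261 and 0.0256) and NR4A2 (adjusted p = 0.00116 and 0.000808) were still called. The RORB call was lost in both cases as well (adjusted p = 0.109 and 0.106). Without a filter on low values PPARD and RXRA alone were called among the 9, and RORB was not (adjusted p = 0.0838).

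Calls among the coregulators that bind the receptors depended on the scale. As deposited, of 17 tested coactivators 1 was higher, 1 lower and 15 not called, and of 11 tested corepressors 1 was higher, 1 lower and 9 not called. On the protein-coding scale 8 of the coactivators were higher and 1 lower, and 2 of the corepressors higher and 1 lower. The shares of all tested genes moved with the scale too, from 18.6% higher and 22.8% lower to 34.3% higher and 18.0% lower. The p160 coactivator genes NCOA1 (adjusted p = 0.00783), NCOA2 (adjusted p = 0.0444) and NCOA3 (adjusted p = 0.0117) were among those called higher there. TBL1XR1, a subunit of corepressor complexes, averaged 27.2 ± 1.33 TPM (SD, n = 2) in the differentiated against 85.6 ± 32.5 TPM in the undifferentiated stage (means stand in this order from here on, unless a fall is described) and fell by 1.57 (adjusted p = 0.00518). NCOA4, a coactivator that also delivers ferritin to lysosomes, averaged 43.0 ± 7.26 and 8.52 ± 3.72 TPM (2.26, adjusted p = 0.000595), and the arginine methyltransferase PRMT1 4.53 ± 0.856 and 16.8 ± 5.25 TPM (-1.66, adjusted p = 0.00445). The abundant acetyltransferase genes CREBBP and EP300 were not called as deposited (adjusted p = 0.15 and 0.853), CREBBP being called higher on the protein-coding scale (adjusted p = 0.00267). NSD3 and NRIP1 were likewise not called, with means of 13.6 and 24.5 TPM for NSD3 and of 8.70 and 19.5 TPM for NRIP1.

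Enzymes and carriers of receptor ligands were largely silent, with 17 of 22 below 1 TPM in every library. Of the 5 tested, 3 were higher, all of which passed the filter through the differentiated libraries alone, and 1 was lower. CH25H, which makes an oxysterol ligand of LXR, had 11.22 and 11.99 TPM after differentiation and stood at 0 in each undifferentiated library (adjusted p = 7.74e-06). The retinol dehydrogenase gene DHRS9 was at 4.76 and 4.93 TPM after and 0 before (adjusted p = 1.88e-05). FABP5, a carrier of fatty acids and retinoic acid, fell from 35.2 ± 8.50 to 6.68 ± 2.84 TPM (-2.27, adjusted p = 0.000617). RDH11 was not called (5.63 ± 1.22 and 8.35 ± 3.06 TPM). With TPM rescaled over protein-coding genes 8 were tested, with 3 higher and 2 lower. Among all tested genes 18.6% were higher and 22.8% lower as deposited, and 34.3% and 18.0% after rescaling.

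Textbook targets of the lipid sensors that were called as deposited were higher with 1 exception, while others were not called or too low to test. Of 14 LXR targets, 8 were tested, 4 of them higher, 0 lower and 4 not called. Another 6 stayed below 1 TPM in all libraries. Among these were ABCG1 (0.43 and 0.51 TPM after, 0.53 and 0.17 TPM before) and APOE (0.09 and 0.12 TPM after, 0.09 and 0 TPM before). Over all genes tested as deposited, 18.6% were called higher and 22.8% lower. The cholesterol exporter ABCA1 averaged 10.4 ± 0.530 and 3.04 ± 1.52 TPM (1.55, adjusted p = 0.00807), and MYLIP, which marks the LDL receptor for degradation, 3.70 ± 0.184 and 0.90 ± 0.495 TPM (1.33, adjusted p = 0.00769). PLTP, which passed the filter through the differentiated libraries alone, and APOC1 were also higher. APOC1 varied between libraries of a stage, with 1.64 and 3.22 TPM after and 1.31 and 0.12 TPM before (1.05, adjusted p = 0.0349). SREBF1 and SCD, LXR targets of fatty acid synthesis, were not called as deposited, with means of 16.8 and 17.0 TPM for SREBF1 and of 20.6 and 15.1 TPM for SCD, and SCD was called higher on the protein-coding scale (1.15, adjusted p = 0.0151). On that scale 6 of 9 tested LXR targets were higher and 0 lower, while 34.3% of all genes tested there were higher and 18.0% lower. Of 16 PPAR targets, 11 were tested, 5 of them higher, 1 lower and 5 not called, while the protein-coding scale gave 7 higher and 1 lower. Of those higher, 2 (CD36 and PDK4) passed the filter through the differentiated libraries alone, and the lower gene through the undifferentiated ones. The fatty acid receptor CD36 averaged 12.0 ± 0.771 and 0.08 ± 0.113 TPM (3.59, adjusted p = 1.06e-05) and ACADVL, which starts the oxidation of very long fatty acids, 47.0 ± 3.41 and 8.37 ± 3.35 TPM (2.40, adjusted p = 0.000306). HILPDA, a lipid droplet protein, fell from 2.19 ± 0.884 to 0.595 ± 0.0495 TPM (-0.97, adjusted p = 0.0157). HADHA and PLIN2 were not called as deposited, and PLIN2 was called higher on the protein-coding scale (1.53, adjusted p = 0.00231). FABP4, a PPARG target of adipocytes and macrophages, was listed at 0 in all 4 libraries.

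Genes known to respond to glucocorticoids moved in both directions. Of 13 tested, 7 were higher, 5 of them through the filter on the differentiated side alone, 3 lower and 3 not called. The shares over all tested genes were 18.6% higher and 22.8% lower. The scavenger receptor gene CD163, which also marks macrophages, had 28.32 and 28.36 TPM after differentiation and was listed at 0 in both undifferentiated libraries (adjusted p = 1.32e-06), and ZFP36, an mRNA decay factor, averaged 49.2 ± 1.09 and 1.66 ± 0.552 TPM (4.25, adjusted p = 3.72e-06). The metallothionein MT1X fell from 125 ± 5.66 to 7.56 ± 1.34 TPM (-3.89, adjusted p = 5.02e-06) and FKBP5, a cochaperone of the receptor, from 7.01 ± 4.50 to 1.12 ± 0.276 TPM (-1.80, adjusted p = 0.00535). DUSP1 and KLF9 were not called as deposited (adjusted p = 0.0597 and 0.0879) and were called higher on the protein-coding scale (adjusted p = 0.00174 and 0.00519). On that scale 9 of 14 tested genes of the list were higher and 2 lower, while 34.3% of all tested genes were higher and 18.0% lower.

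Chaperones and cochaperones of steroid receptors were lower or not called on the deposited scale. Of 12 tested, 0 were higher, 6 lower and 6 not called, with a median difference of -0.95. For all tested genes the median was -0.14, with 18.6% higher and 22.8% lower. On the protein-coding scale 2 were higher, STUB1 (1.64, adjusted p = 0.00163) and DNAJB1 (0.84, adjusted p = 0.0324), and 5 lower, FKBP4 losing its call (adjusted p = 0.0537). Of all genes tested on that scale 34.3% were higher and 18.0% lower. HSP90AA1 fell from 421 ± 122 to 53.7 ± 3.82 TPM (-2.92, adjusted p = 3.39e-05) and HSPA8 from 384 ± 147 to 93.6 ± 1.05 TPM (-1.97, adjusted p = 0.000763). ST13 (24.9 and 47.5 TPM) and PTGES3 (8.81 and 9.15 TPM) were not called.

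Few retinoid and vitamin D targets were measurable. Of 11 retinoic acid receptor targets, 2 were tested. DHRS3, a retinal reductase, was at 1.82 and 2.13 TPM after and 0.07 and 0.03 TPM before (1.50, adjusted p = 9.29e-05), and the ectoenzyme gene CD38 fell from 8.57 ± 2.43 to 0.625 ± 0.00707 TPM (-2.53, adjusted p = 0.000167). DHRS3 passed the filter through the differentiated and CD38 through the undifferentiated libraries alone, the stage where each is high. CYP26A1, the classical retinoic acid response gene, was listed at 0 in all libraries. Of 10 vitamin D receptor targets 3 were tested and 3 were higher, among them CD14 (111 ± 15.2 and 0.095 ± 0.0495 TPM) and the myeloid gene THEMIS2 (30.1 ± 2.30 and 0.365 ± 0.00707 TPM). All 3 passed the filter through the differentiated libraries alone, and CD14 is also a macrophage gene. The protein-coding scale gave 2 higher and 1 lower of 5 tested retinoic acid receptor targets, and 5 higher of 5 tested vitamin D receptor targets. Of all genes tested on that scale 34.3% were higher and 18.0% lower. DHRS3, TGM2, CD14, TREM1 and THBD, all called higher there, passed the rescaled filter through the differentiated libraries alone, so these counts are a description. CYP24A1, the most direct vitamin D target, was at 0.25 TPM in differentiated replicate 1 and at 0 elsewhere. CAMP, another vitamin D target of the list, was listed at 0 in all libraries.

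Genes of the circadian clock that work beside NR1D and ROR receptors gave few calls as deposited and more on the protein-coding scale. Of 10 tested as deposited, 2 were higher, 1 lower and 7 not called, while 18.6% of all tested genes were higher and 22.8% lower. Of 15 tested on the protein-coding scale 7 were higher and 1 lower, while 34.3% of all genes tested there were higher and 18.0% lower. ARNTL (BMAL1), the activator at the core of the clock, was called on that scale (1.33, adjusted p = 0.0120) and not as deposited (adjusted p = 0.263). The repressor genes BHLHE40 (3.65 ± 0.240 and 0.04 TPM, adjusted p = 3.3e-05) and CRY2 (2.04 ± 0.700 and 0.38 ± 0.0141 TPM, adjusted p = 0.0036) were higher, both through the filter on the differentiated side. NFIL3, which is repressed by NR1D1 in the clock, fell from 7.54 ± 3.96 to 1.74 ± 0.156 TPM (-1.56, adjusted p = 0.00988). CSNK1D was not called as deposited (adjusted p = 0.0828) and was called higher on the protein-coding scale (1.45, adjusted p = 0.00256), and CSNK1E was not called.

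Over all 10 lists, 89 of 141 genes were tested, and 26 were higher and 14 lower, against 18.6% higher and 22.8% lower among all tested genes. Of the 26, 16 passed the filter through the differentiated libraries alone, where they are high, and of the 14, 2 through the undifferentiated ones, and the lists hold macrophage genes such as CD14 and CD163, so the split is a description. After rescaling over protein-coding genes 50 were higher and 13 lower, which moved the higher share of the calls from 65% to 79.4%, and that of all genes from 44.8% to 65.6%.

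**Figure D4:**
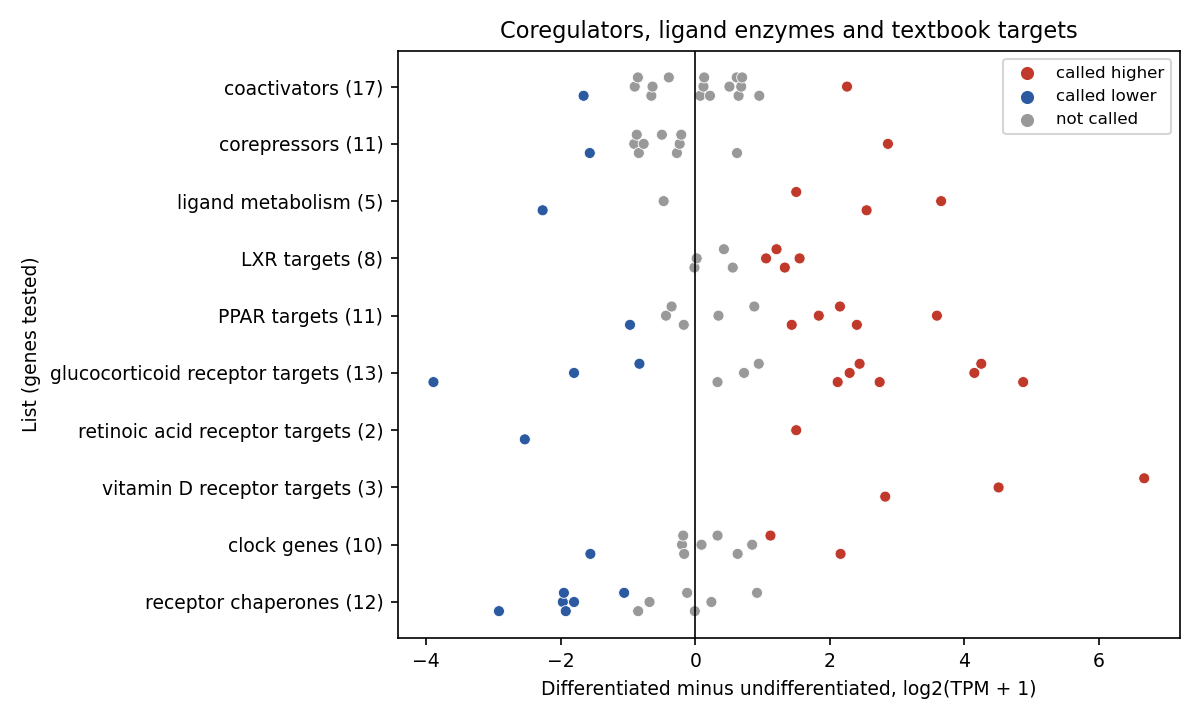
Log2(TPM + 1) difference, differentiated minus undifferentiated, of each tested gene in 10 lists of receptor coregulators, ligand enzymes, chaperones and targets (red, called higher; blue, called lower; grey, not called), with the number tested in parentheses. On this deposited scale chaperones hold 6 lower and 0 higher genes, and LXR targets 4 higher and 0 lower.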

How the data were processed

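The authors' deposited values are TPM, 1 column per library, and the submitters' processing notes name Trimmomatic, STAR and RSEM. Their versions and settings, the build and the gene models were not given in the sources used here. Since TPM keep no depth, sequencing depth is unknown and no counting error was computed. Columns were assigned to samples by their titles. TPM were transformed to log2(TPM + 1), and limma 3.58.1 under R 4.3.3 tested the stages (mean-variance trend, two-sided, all 4 libraries, 2 residual degrees of freedom) for each gene that reached 1 TPM in 2 or more libraries. P-values were Benjamini-Hochberg adjusted over all genes tested. The fit was tested on simulated data with known changes. Gene types and exon overlaps came from GENCODE 29, in which 58039 of 58302 IDs were found, and which need not be the authors' annotation. Alternatives were other pseudocounts, filters, scalings, variance models, a replicate block and leaving out each library.

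The receptors and the lists were chosen with earlier results of these data known. Named genes were every receptor reaching 1 TPM, and from each list up to 2 called genes with the largest difference in each direction and the 2 most abundant tested genes not called. Other list genes named were chosen after their values were seen. The result of 1 list gene is not reported here.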

Additional observations from a re-analysis of the deposited data

How the results depend on the processing

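With 2 libraries per stage the calls depend on the libraries and on the filter. All genes called numbered 4216, against 1260 without a filter on low values and 2436 at 5 TPM or more, and from 1271 to 5652 with 1 library left out. Receptors called higher numbered 9, against 2 without a filter, 3 at 5 TPM or more, 15 over protein-coding genes, and 2 to 10 with 1 library left out. Receptors called lower numbered 1, against 0 without a filter, 0 at 5 TPM or more (where RORB was not tested) and 0 to 1 with 1 library left out. Pathway genes called higher numbered 26, against 17 without a filter, 50 over protein-coding genes and 17 to 37 with 1 library left out, and those called lower 14, against 3 without a filter and 2 to 28 with 1 library left out. The cause of these shifts was not tested, beyond the fewer samples or other genes that each analysis held. Labels give both stages replicate numbers 1 and 2 and do not say whether equal numbers share a culture. Deviations of equal numbers correlated at -0.024 across genes. With 2 libraries per stage this value cannot decide whether the numbers pair the libraries. With the replicate block 3766 genes, 8 receptors higher and 1 lower, and 26 pathway genes higher and 12 lower were called. None of the genes called as deposited and named here changed sign in any of the 14 alternatives. Uncalled genes that changed sign were NR2C1 (0.05 with median-of-ratios scaling, 0.20 with quantile normalization, 0.47 over protein-coding genes, 0.07 without the most abundant RNAs, 0.04 and 0.06 with differentiated or undifferentiated replicate 1 left out), NR2C2 (-0.01 and -0.45 without replicate 2 of either stage) and PPARA (-0.11 with quantile normalization, -0.15 and -0.17 without replicate 2 of either stage). In the same order of scalings PTGES3 gave 0.12, 0.19, 0.55 and 0.15 and SREBF1 0.11, 0.36, 0.55 and 0.14, with 0.02 and 0.34, and 0.00 and 0.12, without replicate 1 of either stage. With 1 library left out CSNK1E ranged from -0.25 to 0.44, EP300 from -0.52 to 0.76, SCD from -0.08 to 1.20, NR2C1 from -0.22 to 0.06, PPARA from -0.17 to 0.24 and PTGES3 from -0.36 to 0.34, and HADHA (0.18) and RDH11 (0.03) changed sign over protein-coding genes. Over all named genes and alternatives, 650 of the values kept direction and call, 65 lost a call, 45 gained one and 30 changed sign.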
